A study of Mus musculus with 672 samples.

Results

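Control B-biased lymphoid progenitors (BLPs) were bone marrow cells sorted as lineage-negative, Sca-1+, c-Kit+, Flt3-high, IL-7Ra+, Ly6D+ and B220-, one cell per well. Of 72 sorted, 69 were kept, out of 561 kept cells of 672 in the whole series: 34 came from mouse 18218 and 35 from mouse 18220. To be kept, a cell needed 50000 or more nuclear gene counts from 1000 or more nuclear genes, with mitochondrial reads limited to 20% and spike-in reads to 50%. The 3 cells left out held 21959, 19295 and 18409 nuclear gene counts, and the shallowest cell kept held 567536. Both control mice were Mbd3 flox/flox, so the controls carried floxed alleles of Mbd3, a subunit of the NuRD chromatin complex. The 71 null BLPs came from 2 Mbd3 del/del mice (18217 and 18219). The sources used here do not give which Cre deleted the gene, or whether the controls carried it. All mice were 7 weeks old, on a C57BL6/129Ola background. From the same control mice came 114 all-lymphoid progenitors (ALPs, IL-7Ra+ and Ly6D-) and 94 lymphoid-primed multipotent progenitors (LMPPs, without IL-7Ra). The mouse is the replicate (n = 2 per group), so an exact permutation test of 2 mice against 2 cannot give a p under 0.33. Levels and percentages are given mouse by mouse. Counts of cells with no mouse named are pooled over both mice, which gave 74 and 40 of the ALPs (mice 18218 and 18220). These were kept out of 84 ALPs sorted from each mouse, so the filter removed far more ALPs of mouse 18220. Null ALPs were split in a like way, with 79 and 42 of 84 kept from mice 18217 and 18219. Of LMPPs, 47 of 48 were kept from each control mouse.

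The B lineage begins in cells that still hold open several lymphoid fates. The transcription factor Ebf1 switches on the first B cell genes, and Pax5 then commits the cell and closes the alternatives. Early B lineage cells make the parts of the pre-B cell receptor (Cd79a, Cd79b, the surrogate light chain genes Igll1, Vpreb1, Vpreb2 and Vpreb3). They also make its signalling proteins (Blnk, Blk) and the Rag1 and Rag2 recombinase that cuts antigen receptor genes. Ly6D marks the side of the lymphoid compartment that leans to the B lineage, and IL-7 receptor carries the survival signal for it in the mouse.

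The sequencing was deep and full-length, and without molecular identifiers each count stands for a read. The median BLP held 2055702.5 nuclear gene counts and 9249 genes in mouse 18218, and 2264782 counts and 8752 genes in mouse 18220. For any statement on how many cells held a transcript, each cell was thinned at random to 50000 nuclear gene counts, and "read" below means at least 1 read at that depth. Summed per mouse, the BLP libraries held 81814166 and 108702781 counts in mice 18218 and 18220, and levels of summed libraries are given as CPM, counts scaled to the library total. Intervals and upper limits cover counting error only. Macrophage and stromal transcripts were close to absent: 8 of 10 such genes were read in no BLP, among them C1qa, Adgre1 and Col1a1, where 0 of 69 cells allows a share of up to 4.35%.

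All 6 markers of the label were read in these cells. Ly6d (chr15:74762056-74763620, build GRCm38), the gene of the sorted surface protein, was read in all 69 BLPs, against 47 of 114 ALPs and 20 of 94 LMPPs. Its level was 2794 and 3749 CPM in BLPs of mice 18218 and 18220, 40.1 and 133 CPM in ALPs and 3.95 and 4.28 CPM in LMPPs. Per exon length Ly6d ranked 2nd of all protein-coding genes in BLPs, behind B2m, with ribosomal protein and mitochondrial genes left out. Il7r, the other gate gene that separates the populations, was read in 67 BLPs, 111 of 114 ALPs and 27 of 94 LMPPs. Since Ly6D and IL-7Ra set the gate, these levels describe the sort. The 4 markers that were not sorted on were less uniform: Ebf1 was read in 51 BLPs, Rag1 in 50, Cd79a in 49 and Pax5 in 20.

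A control BLP held on average 8.14 of 20 B lineage genes (± 1.21, SD over 2 mice), with 9.0 in mouse 18218 and 7.29 in mouse 18220. Control ALPs held 4.82 and 3.70 and control LMPPs 2.26 and 1.77 in the same mice. In both mice the BLP mean lay above the ALP mean and the LMPP mean. Single cells spread widely around these means, between 3 and 16 genes in mouse 18218 and between 0 and 17 in mouse 18220. At least 5 B lineage genes were read in 58 of 69 BLPs (84.1%), in 52 of 114 ALPs (45.6%) and in 4 of 94 LMPPs. At least 10 were read in 20 BLPs (29.0%) and in 0 ALPs and 0 LMPPs, which allows shares of up to 2.63% and 3.19%. Among control cells the distributions thus overlapped at their lower end, and the upper end held BLPs alone. Null ALPs, which are not controls, had 10 or more in 15 of 121 cells.

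**Figure D1:**
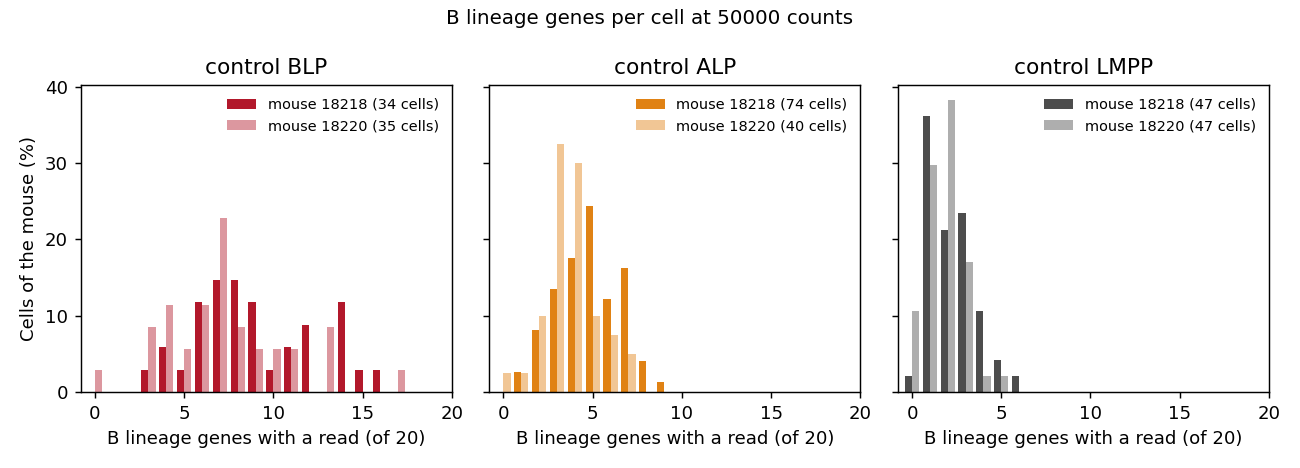
Number of the 20 B lineage genes with at least 1 read per cell (x axis) and the share of each mouse's cells with that number (y axis, %), in control BLPs, ALPs and LMPPs, all cells thinned to 50000 counts. Dark bars are mouse 18218 and light bars mouse 18220. BLPs reach 16 and 17 genes, while no ALP or LMPP reaches 10.

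Of the transcription factors, Ebf1 (chr11:44617317-45008091) was read in 76.5% and 71.4% of BLPs in mice 18218 and 18220, 29.7% and 20.0% of ALPs and 4.26% and 8.51% of LMPPs. Its summed level was 267 and 227 CPM in BLPs, 24.7 and 19.9 CPM in ALPs and 1.01 and 0.724 CPM in LMPPs, so the 3 populations did not overlap. Among single BLPs, Ebf1 had a lowest value of 0.989 CPM, a median of 165.5 and a highest of 2048 CPM in mouse 18218, and 0.44, 237 and 1619 CPM in mouse 18220. Pax5 (chr4:44524757-44710487) was read in 32.4% and 25.7% of BLPs, 4.05% and 2.5% of ALPs and 0 of 94 LMPPs. In the median BLP it stood at 0.973 and 0.882 CPM, and its highest cells held 493 and 682 CPM, so a minority of cells carried most of its reads. With all reads used and at least 10 required, Pax5 was found in 22 BLPs, 1 ALP and 0 LMPPs, and Ebf1 in 54 BLPs, 34 ALPs and 1 LMPP. Pou2af1, the B cell coactivator of octamer factors, was read in 10 BLPs and in 0 ALPs and 0 LMPPs. Lef1, which takes part in early B cell growth, was read in 6 BLPs, 3 ALPs and 2 LMPPs.

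Of the receptor parts, Cd79a (chr7:24897381-24902197), the signalling chain of the pre-B and B cell receptor, was read in 76.5% and 65.7% of BLPs, 14.9% and 5.0% of ALPs and 14.9% and 8.51% of LMPPs. It stood at 363 and 419 CPM in BLPs, 15.1 and 0.941 CPM in ALPs and 1.27 and 1.18 CPM in LMPPs. Per exon length it was the second most abundant B lineage transcript of the list in BLPs, at 649 ± 44.4 (counts per kilobase scaled to the same total as CPM, SD over 2 mice), beside Vpreb3 at 668 ± 113, Cd79b at 406 ± 66.5 and Ebf1 at 61.5 ± 8.9. Vpreb3 was thus abundant in sum but present in few cells, being read in 26 of 69. Its median cell held 4.34 and 2.06 CPM, and its highest cells 2822 and 4796 CPM. Igll1 was the extreme case: 269 CPM in the BLPs of mouse 18220, of which a single cell gave 98.9%, and 13.4 CPM in those of mouse 18218. Cd79b did not follow Cd79a across populations, being read in 45 of 69 BLPs, 55 of 114 ALPs and 50 of 94 LMPPs.

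Vpreb1 and Vpreb2, which both encode the V-like part of the surrogate light chain, are near-identical copies. The authors' counting can assign their shared reads to either or neither. Their longest protein-coding transcripts in GENCODE vM21 were identical at 739 of 759 aligned bases (97.4%), against 57.6% for Vpreb1 and Vpreb3. The limit on the counts rests on these transcripts. The 300 bases around each start (RefSeq, build GRCm38.p6) are shown because the copies are alike there too. Capitals mark the stretch of 156 bases that aligns between both, at 153 identical positions.
Vpreb1, chr16:16869206-16869505, minus strand: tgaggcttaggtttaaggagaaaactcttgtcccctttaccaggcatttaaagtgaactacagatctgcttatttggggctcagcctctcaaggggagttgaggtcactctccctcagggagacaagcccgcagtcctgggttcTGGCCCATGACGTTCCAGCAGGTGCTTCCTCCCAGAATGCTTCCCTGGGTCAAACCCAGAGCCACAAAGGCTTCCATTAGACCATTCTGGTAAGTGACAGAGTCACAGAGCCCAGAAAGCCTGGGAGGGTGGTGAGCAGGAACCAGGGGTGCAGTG
Vpreb2, chr16:17980315-17980614, plus strand: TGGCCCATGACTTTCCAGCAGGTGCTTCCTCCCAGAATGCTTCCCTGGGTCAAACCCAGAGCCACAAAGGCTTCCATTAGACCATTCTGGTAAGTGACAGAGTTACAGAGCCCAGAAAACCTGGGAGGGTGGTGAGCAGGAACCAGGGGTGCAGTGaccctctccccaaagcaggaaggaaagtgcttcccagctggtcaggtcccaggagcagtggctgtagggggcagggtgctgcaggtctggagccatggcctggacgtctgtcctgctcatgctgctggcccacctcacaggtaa
The stretch lies at different places relative to the 2 annotated starts, so the starts themselves are not equivalent. As counted, Vpreb2 was read in 40 BLPs, 9 ALPs and 0 of 94 LMPPs, and Vpreb1 in 19 BLPs, 3 ALPs and 5 LMPPs.

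Signalling and recombinase genes were less restricted to BLPs. Blnk, the adaptor of the pre-B cell receptor, was read in 94.1% and 88.6% of BLPs but also in 83.8% and 82.5% of ALPs, and in 25.5% and 21.3% of LMPPs. Blk, a Src family kinase of B cells, was read in 91.2% and 74.3% of BLPs, 47.3% and 32.5% of ALPs and 4.26% and 2.13% of LMPPs. Rag1 and Rag2 did not move together. Rag1 stood at 282 and 284 CPM in BLPs, 46.1 and 24.2 CPM in ALPs and 2.02 and 3.78 CPM in LMPPs, while Rag2 stood at 230 and 129 CPM in BLPs, 222 and 142 CPM in ALPs and 39.8 and 27.7 CPM in LMPPs. Cd22, an inhibitory receptor of later B cells, was read in 1 BLP.

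**Figure D2:**
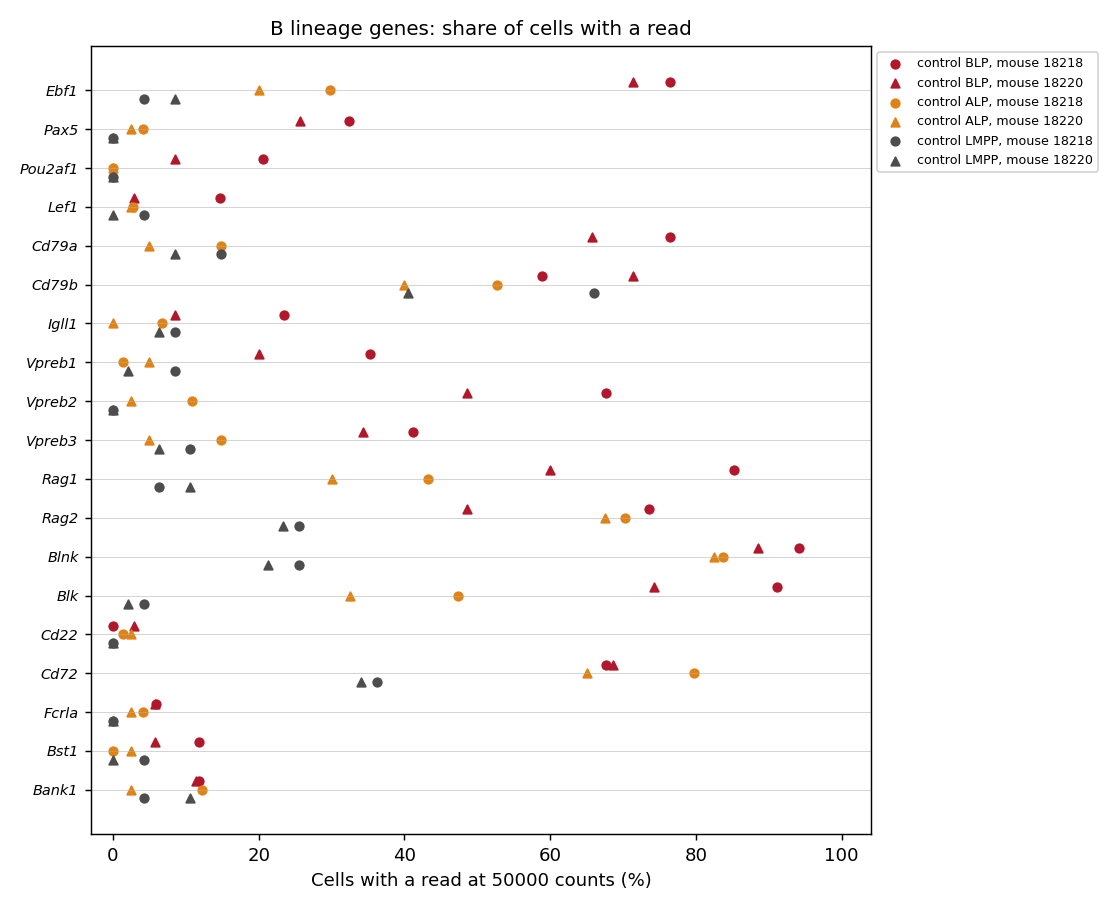
Share of cells with a read at 50000 counts (x axis, %) for 19 of the 20 B lineage genes (y axis), in control BLPs (red), ALPs (orange) and LMPPs (grey). Circles are mouse 18218 and triangles mouse 18220. Ebf1, Cd79a and Vpreb2 separate BLPs from both other populations, whereas Blnk, Rag2 and Cd72 are about as frequent in ALPs.

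The B lineage genes formed a partly nested order within single BLPs. Of 20 cells with a Pax5 read, 19 also had Ebf1, all 20 had Cd79a, all 20 had Blnk, 19 had Rag1 and 18 had Vpreb2. The reverse did not hold, since 32 cells had Ebf1 and no Pax5, and 29 had Cd79a and no Pax5. Ebf1 and Cd79a themselves were read together in 42 cells, Ebf1 alone in 9, Cd79a alone in 7 and neither in 11. The same nesting was counted in null BLPs, where 18 of 20 Pax5 cells had Ebf1 and all 20 had Cd79a, while 33 of 71 cells had Ebf1 and no Pax5. For scale, 51 of all 69 control BLPs had Ebf1, 49 had Cd79a and 63 had Blnk. A missed read at this depth cannot be told from a missing transcript.

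The test across all genes was edgeR's quasi-likelihood test on summed libraries (19903 genes, Benjamini-Hochberg adjusted p under 0.05). For control BLPs over ALPs it called 1 gene higher, 0.00502% of those tested, and 0 lower, with 1493 at an unadjusted p under 0.05. The called gene was Ebf1, with a log2 change of 3.47 ± 0.26 (approximate SE) and an adjusted p of 0.0107. It was no longer called when any 1 of the 4 mice was left out, or in the control libraries alone. Of the 20 B lineage genes, 19 had a log2 change above 0 with a median of 3.24, beside -0.003 over all genes, but Ebf1 was the only one called. DESeq2 called 261 genes higher and 329 lower.

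Since 1 cell can dominate a summed level, the share of cells with a read was tested too, with limma on the log2 odds of 11924 genes, an alternative chosen after the data were seen. It called 11 genes higher in BLPs than ALPs (0.0923%) and 1 lower (0.00839%). Among the higher ones were Cd79a, Vpreb2 and Pax5, with adjusted p of 0.0165, 0.0151 and 0.0379 in limma. Ly6d was called too (limma, adjusted p = 3.3e-05), but its protein set the gate, so its change describes the sort. Ebf1 did not pass here (limma, adjusted p = 0.143). The genes called outside the B lineage list included Lynx1, Dlg2, Htra3 and Gpat3. Lynx1, a Ly6 family gene that lies near Ly6d on the chromosome (chr15:74747852-74753046), was read in 21 BLPs, 1 ALP and 1 LMPP. Dlg2, a membrane scaffold known from synapses, was read in 17 BLPs, 1 ALP and 2 LMPPs. Htra3, a secreted serine protease, was read in 14 BLPs, 2 ALPs and 0 LMPPs, and Gpat3, an enzyme of glycerolipid synthesis, in 12 BLPs, 1 ALP and 0 LMPPs. The gene that fell was Ddx4, an RNA helicase known from germ cells, read in 0 of 69 BLPs (a share of up to 4.35%), 28 of 114 ALPs and 47 of 94 LMPPs, with a limma adjusted p of 0.0379.

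Control BLPs over LMPPs gave larger differences. edgeR called 117 genes higher (0.588%) and 71 lower (0.357%). With mouse as a replicate block it called 81 higher and 45 lower, and without mouse 18218 or mouse 18220 it called 3 and 0 higher and 0 and 0 lower. Without null mouse 18217 or 18219 it called 34 and 32 higher and 9 and 8 lower, and DESeq2 on all libraries called 987 higher and 903 lower. Of the 20 B lineage genes 9 rose and none fell: Ebf1, Pax5, Cd79a, Vpreb2, Vpreb3, Blnk, Blk, Rag1 and Rag2. Ebf1 changed by 8.16 ± 0.33 (log2, edgeR adjusted p = 2.75e-05) and Blnk by 5.35 ± 0.56 (edgeR adjusted p = 0.00515). Besides Ly6d and B lineage genes the largest increases, among genes of at least 20 CPM, were those of Colq, the collagen-like tail of acetylcholinesterase, Epha2, an ephrin receptor, Hes1, a Notch target, and Gas7. Colq stood at 120 and 148 CPM in BLPs, 39.9 and 32.0 CPM in ALPs and 0.263 and 0.224 CPM in LMPPs, and changed by 9.10 ± 0.37 (log2, edgeR adjusted p = 2.75e-05 over LMPPs). On shares of cells limma called 207 genes higher (1.74%) and 176 lower (1.48%), with 9 of the 15 B lineage genes tested higher and none lower. By the same limit the largest decreases in edgeR were those of Rab38, Osgin1, Nkx2-3, Gas6, Ddx4, Procr, Csf3r and Tnfsf14, all read in at most 2 of 69 BLPs. Of 6 gate genes (Ly6d, Il7r, Flt3, Kit, Ly6a and Ptprc), edgeR called Ly6d and Il7r higher and Kit lower than in LMPPs. On shares of cells limma called the same genes in the same directions. These are genes of sorted proteins.

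General lymphoid genes were more alike between the populations than B lineage genes. A BLP held 17.8 and 17.4 of 26 such genes, an ALP 16.9 and 16.4 and an LMPP 14.6 and 13.9. Over LMPPs, 5 of the 26 rose in edgeR (0.588% of all genes did) and none fell, with a median log2 change of 0.83. They were the factors Tcf12, Foxp1 and Myb, Cd24a, and Il7r, whose protein set the gate and whose change describes the sort. Over ALPs none was called. Foxo1, a factor that acts with Ebf1 and drives Rag genes, stood at 103 and 160 CPM in BLPs, 22.8 and 24.8 CPM in ALPs and 12.6 and 3.87 CPM in LMPPs, which edgeR did not call (adjusted p = 0.545 over ALPs and 0.0622 over LMPPs). On shares of cells limma called 7 of 21 tested higher than in LMPPs (1.74% of all genes were) and none lower. They were Foxo1, Foxp1, Myb, Bach2, Irf8, Il7r and Id2, and limma called none over ALPs. Dntt, the enzyme that adds bases at antigen receptor joints, was read in all 69 BLPs and stood at 5319 and 4789 CPM in BLPs, 9223 and 8218 CPM in ALPs and 2692 and 1517 CPM in LMPPs.

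Cell cycle genes differed between the mice. A BLP held 6.44 of 24 G2 and M phase genes in mouse 18218 and 3.14 in mouse 18220, ALPs of the same mice 7.85 and 4.73, and LMPPs 3.83 and 2.51. Null mice differed in a like way, with 9.47 in BLPs of mouse 18217 and 6.54 in those of mouse 18219. What sets mice 18217 and 18218 apart from mice 18219 and 18220 was not tested. Mki67, a marker of dividing cells, was read in 50.0% and 20.0% of BLPs. No S phase, G2 and M phase, immediate early or NuRD gene was called by edgeR over ALPs or LMPPs. On shares of cells limma called 1 of 22 S phase genes, Uhrf1, higher than in LMPPs (1.74% of all genes were). All 24 G2 and M phase genes had log2 changes below 0 over ALPs (median -1.28), while 21 were above 0 over LMPPs (median 0.90). Of 21 interferon response genes edgeR called 1, Oasl2, lower over LMPPs (0.357% of all genes were). On shares of cells limma called 4 of 20 lower (1.48% of all genes were): Ifit1, Oasl2, Ifih1 and Rtp4. All 21 were below 0 over LMPPs in edgeR (median log2 change -2.66), and 19 were over ALPs (median -1.29). Of mature B cell genes edgeR called none, and limma on shares of cells called Sdc1 higher than in LMPPs (adjusted p = 0.0161). Sdc1, a surface proteoglycan of plasma cells, was read in 52 BLPs, 65 ALPs and 30 LMPPs, and transcripts of Ighd, the delta heavy chain locus, in 36 BLPs, 44 ALPs and 25 LMPPs.

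Transcripts of other lineages were read in every BLP. Over 105 genes of T, NK, myeloid, dendritic, erythroid and stem lists, a BLP held 18.6 in mouse 18218 and 17.3 in mouse 18220, ALPs held 21.1 and 19.5, and LMPPs 24.4 and 23.2. BLPs were the lowest of the 3 populations in both mice, and the lowest single BLP still held 9. They were not spread evenly over the lists: 14 of 24 stem and multipotent genes and 10 of 15 dendritic genes were read in at least 5% of BLPs of both mice, against 7 of 18 myeloid, 5 of 18 T lineage and Notch, 5 of 15 NK and 1 of 15 erythroid and megakaryocyte genes. Against LMPPs the lower sum did not hold for every list. Means over 2 mice in BLPs, ALPs and LMPPs were 6.36, 7.29 and 11.8 for stem and 2.48, 2.74 and 4.16 for myeloid genes. For erythroid genes they were 0.56, 0.74 and 1.44, and for dendritic genes 4.24, 4.14 and 2.70. For T and Notch genes they were 2.70, 3.22 and 2.05, and for NK genes 1.61, 2.17 and 1.60. Dendritic genes had no common direction between BLPs and ALPs. In mouse 18218 BLPs held 3.91 and ALPs 4.55, and in mouse 18220 BLPs held 4.57 and ALPs 3.725.

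Of stem and multipotent genes, Cd34, a surface sialomucin of progenitors, was read in 76.5% and 60.0% of BLPs, 94.6% and 90.0% of ALPs and in all 94 LMPPs. It stood at 356 and 302 CPM in BLPs, 839 and 626 CPM in ALPs and 1552 and 1685 CPM in LMPPs, and the log2 change over LMPPs was -2.30 ± 0.36 (edgeR adjusted p = 0.0296). Of the 24 genes 23 were tested over LMPPs in edgeR, and 8 fell (0.357% of all genes did) and none rose, with a median log2 change of -1.95. Among them were Lmo2, a factor of blood stem cells, at 91.7 and 80.5 CPM in BLPs and 878 and 830 CPM in LMPPs, and Hlf, at 7.00 and 9.82 CPM in BLPs and 196 and 213 CPM in LMPPs. Meis1, a homeobox factor of stem cells, was read in 39 BLPs and Erg, an ETS factor, also in 39. No gene of the list was called between BLPs and ALPs (0 of 23 tested in edgeR).

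Of myeloid genes, Mpo, the peroxidase of granules, differed between the mice: it was read in 61.8% of BLPs of mouse 18218 and 22.9% of those of mouse 18220, and the ALPs of the same mice had 81.1% and 57.5%. Lyz2, lysozyme, was read in 29 BLPs, 64 of 114 ALPs and 85 of 94 LMPPs, and fell over LMPPs by 2.43 ± 0.43 (log2, edgeR adjusted p = 0.0472). Csf3r, the receptor for granulocyte colony-stimulating factor, was read in 2 BLPs, 13 ALPs and 61 LMPPs. Ly86, an accessory protein of a Toll-like receptor homologue, went the other way, at 359 and 353 CPM in BLPs, 229 and 393 CPM in ALPs and 9.04 and 11.0 CPM in LMPPs (edgeR adjusted p = 0.0378 over LMPPs). Csf2rb, a shared cytokine receptor chain, was read in 29 BLPs. Elane, Ms4a3, Fcgr3, S100a8 and Camp, genes of more mature myeloid cells, were read in 0 of 69 BLPs. Nfe2, a factor of megakaryocytes and red cells, was read in 25 BLPs, 51 ALPs and 83 LMPPs, while Gata1, Klf1 and Epor were read in no BLP.

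Of T lineage and Notch genes, the receptor Notch1 was read in 91.2% and 91.4% of BLPs, 87.8% and 85.0% of ALPs and 59.6% and 80.9% of LMPPs. The kinase Lck was read in 76.5% and 71.4% of BLPs and 83.8% and 85.0% of ALPs. Hes1 was read in 26.5% and 48.6% of BLPs, 14.9% and 7.5% of ALPs and 0 and 2.13% of LMPPs. It stood at 67.3 and 82.7 CPM in BLPs, 17.3 and 7.49 CPM in ALPs and 0.126 and 0.297 CPM in LMPPs, with a log2 change of 8.44 ± 0.88 over LMPPs (edgeR adjusted p = 0.00479) and 2.60 ± 0.67 over ALPs, which was not called (edgeR adjusted p = 0.496). The genes of committed T cells Cd3e, Cd3g, Cd3d, Ptcra and Themis were read in no BLP. Of NK and innate genes, Nkg7, a granule membrane protein, was read in 48 BLPs, Il18r1, the receptor for interleukin 18, in 24, and Klrd1, a subunit of NK receptors, in 23. Tox, a factor needed by innate lymphoid cells, was read in 11.8% and 11.4% of BLPs, 45.9% and 47.5% of ALPs and 38.3% and 34.0% of LMPPs. Gzma, Gzmb and Zbtb16 were read in no BLP.

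**Figure D3:**
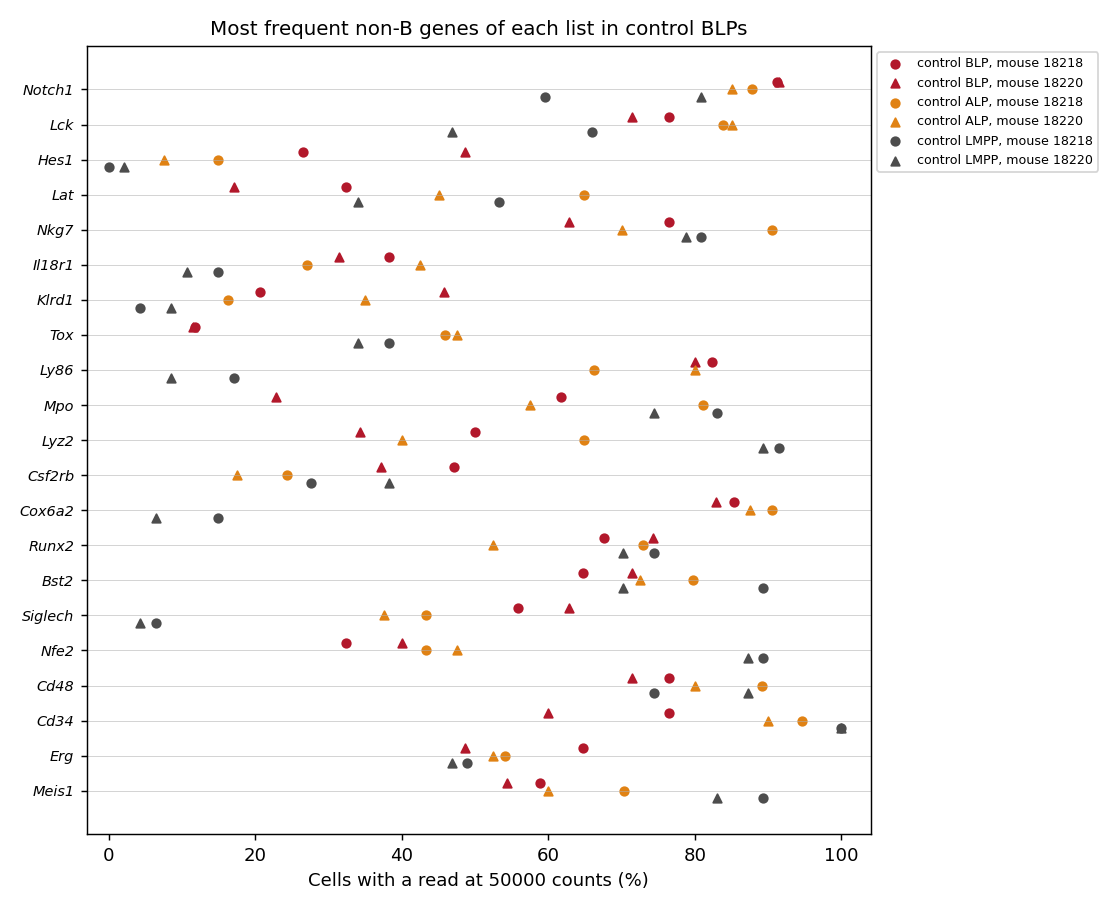
Share of cells with a read at 50000 counts (x axis, %) for up to 4 genes per non-B list, those read in the highest number of control BLPs (y axis, in the order T and Notch, NK and innate, myeloid, dendritic, erythroid, stem), in BLPs (red), ALPs (orange) and LMPPs (grey). Circles are mouse 18218 and triangles mouse 18220. Within each mouse Cd34, Lyz2 and Nfe2 are lowest in BLPs, while Hes1 and Siglech are highest there.

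Of 15 dendritic genes 14 were tested over LMPPs in edgeR, and 3 rose (0.588% of all genes did) and none fell. Above 0 were 7 and below 0 also 7, with a median log2 change of 0.10. Those that rose were Cox6a2, Siglech and Pld4, all known from plasmacytoid dendritic cells, the interferon-producing cells that also come from lymphoid progenitors. Cox6a2, a subunit of cytochrome oxidase, stood at 419 and 775 CPM in BLPs, 264 and 600 CPM in ALPs and 4.17 and 3.63 CPM in LMPPs (log2 change over LMPPs 7.26 ± 0.60, edgeR adjusted p = 0.00228). Per exon length it ranked 11th among protein-coding genes in BLPs. Siglech, a sialic acid receptor, was read in 55.9% and 62.9% of BLPs, 43.2% and 37.5% of ALPs and 6.38% and 4.26% of LMPPs. Its cells ran from 0 through medians of 9.98 and 24.3 CPM to 4725 and 4291 CPM, so a few BLPs held it at a level far above the rest. Runx2, a factor of plasmacytoid dendritic cells, was read in 49 BLPs. Irf8, a factor used by both B and dendritic cells, was read in 63, with single cells between 2.96 and 7223 CPM in mouse 18218. Batf3, a factor of conventional dendritic cells, was read in 0 of 69.

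Siglech, Irf8 and Cox6a2 were also among the 15 genes that varied most from cell to cell beyond the technical variation of the spike-in RNAs. The excess was the squared coefficient of variation over the value fitted to spike-ins at the same level, and genes were ranked by the lower value of the 2 mice, among 5285 genes with a median of 1.411. Ly6d had 17.0, Siglech 15.5, Irf8 15.2 and Vpreb3 11.9. The sizes depended on the scaling: with genes and spike-ins both scaled by gene totals, Ly6d had 3.24, Siglech 9.28, Irf8 6.21 and Vpreb3 7.39, so Ly6d was no longer the highest. The other 11 were Lgals1, Tyrobp, Ctr9, Top2a, Tubb5, Cox6a2, Cd24a, Fos, Cd79a, Chchd10 and Dntt. Under that other scaling Dntt had 0.789, below the value fitted to spike-ins, and Tubb5 had 1.94, against 7.47 in the first. Ly6d itself ran between 355 and 11031 CPM in mouse 18218 and between 321 and 14095 CPM in mouse 18220, although each cell had been sorted as Ly6D+. Fos, an immediate early gene, differed between the mice, with a median cell at 4.74 CPM in mouse 18218 and 1120 CPM in mouse 18220. A control BLP held 4.68 and 6.43 of 12 immediate early genes in these mice. A null BLP held 4.81 in mouse 18217 and 6.2 in mouse 18219, and the cause of the split was not tested.

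Across BLPs, the number of B lineage genes ran opposite to the level of some dendritic genes. Spearman's rho between that number and the level of Cox6a2 was -0.69 in mouse 18218 and -0.67 in mouse 18220, over 34 and 35 cells, and by the weaker of both values Cox6a2 ranked lowest of 7882 protein-coding genes. Irf8 had -0.45 and -0.54, Runx2 -0.44 and -0.72 and Siglech -0.41 and -0.58. The genes named here were chosen after their values were seen, and the cells of a mouse share their sort and depth, so these are descriptions. The same 4 genes were below 0 in null BLPs, cells that did not enter that ranking: Cox6a2 had -0.65 and -0.29 in mice 18217 and 18219, Irf8 -0.56 and -0.32, Runx2 -0.58 and -0.33 and Siglech -0.63 and -0.28. Other dendritic genes did not follow: Pld4 had -0.02 and -0.11 in control mice 18218 and 18220 and Cd74 -0.11 and 0.12. Of the 15 genes of the dendritic list, which does not hold Irf8, 8 were read in enough cells to be ranked. Of these, 6 were below 0 in both control mice, Pld4 among them. The 4 below 0 in all 4 mice were Cox6a2, Runx2, Siglech and Bst2. Values at or under -0.4 in both control mice were found for 18 of 7882 protein-coding genes, and at or over 0.4 for 28.

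The cells at the ends of the range are single examples, picked by their number of B lineage genes. In mouse 18220 the BLP with the most B lineage genes, 17, held 1619 CPM Ebf1, 682 CPM Pax5, 3394 CPM Cd79a and 2624 CPM Vpreb3, with 10.6 CPM Siglech and 0 CPM Cox6a2. The cell of that mouse with none read at equal depth held 1.47 CPM Ebf1, 0.08 CPM Pax5 and 2.69 CPM Cd79a, with 2663 CPM Siglech, 2715 CPM Cox6a2, 3394 CPM Irf8 and 1267 CPM Runx2. Both cells were also the extremes of depth in mouse 18220. The cell with 17 held 567536 nuclear gene counts and 6399 genes, and the cell with none 12279732 and 11160. In mouse 18218 the cell with 16 B lineage genes held 481 CPM Ebf1, 1101 CPM Cd79a and 3.03 CPM Siglech. The cell with 3 held 1.41 CPM of both Ebf1 and Cd79a, with 1735 CPM Siglech, 3134 CPM Cox6a2 and 7223 CPM Irf8. Between these ends the transcripts were mixed: 28 of 69 BLPs had both Ebf1 and Siglech, 40 had Ebf1 and Cox6a2, and 9 of 20 Pax5 cells had Siglech. Cox6a2 was read in 58 of all 69 BLPs, among them all 18 without an Ebf1 read and all 20 without Cd79a.

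**Figure D4:**
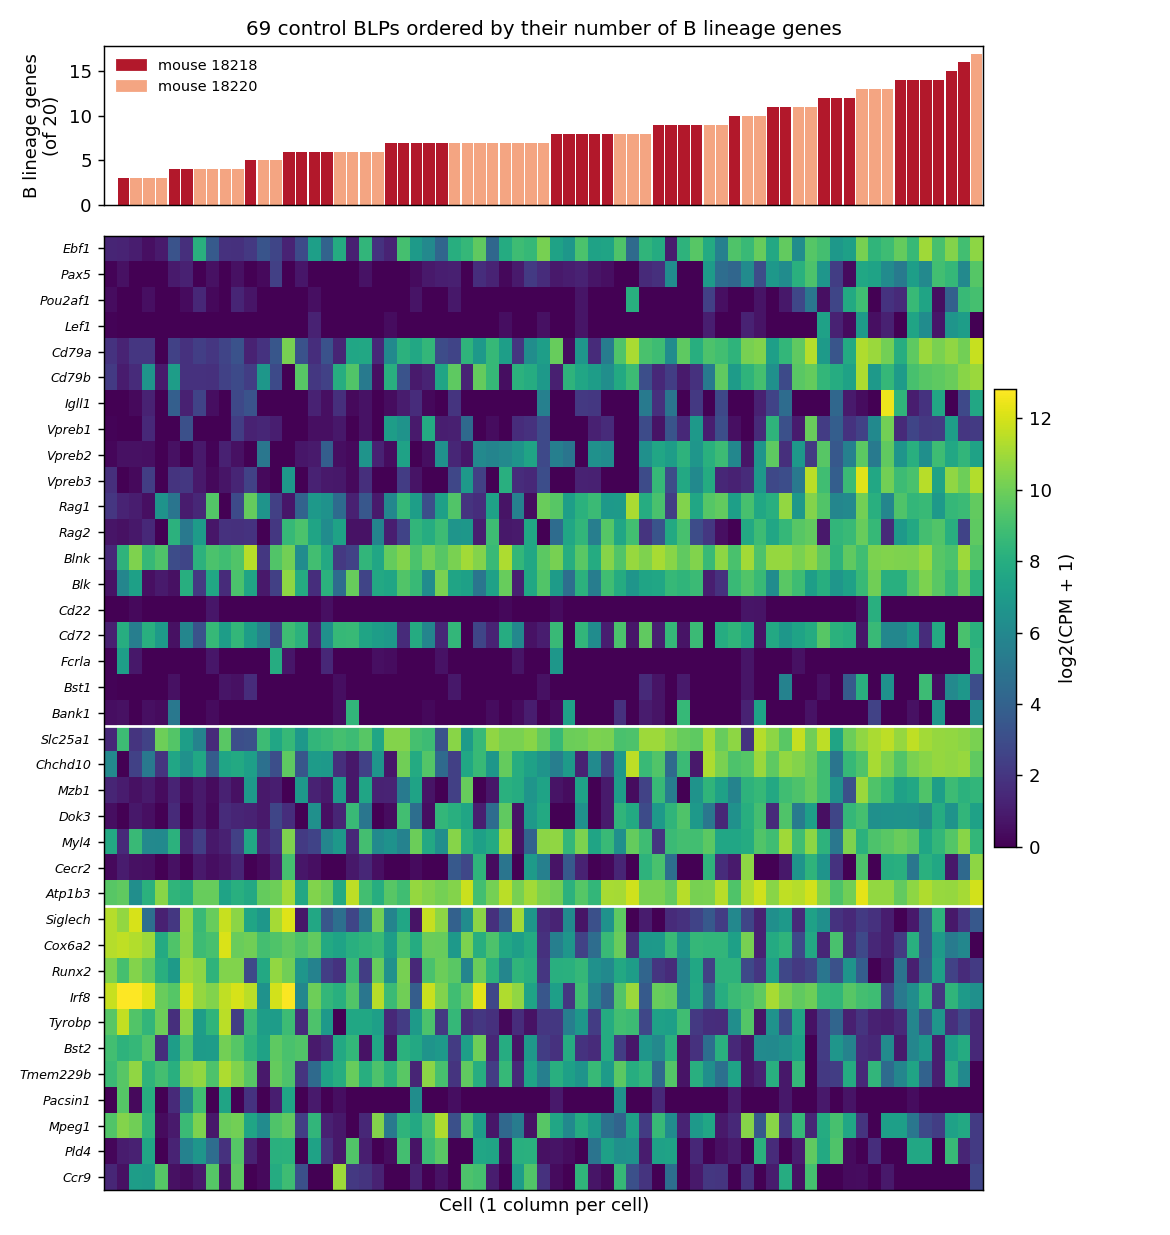
The 69 control BLPs, 1 column each, ordered by their number of B lineage genes (bars at the top, coloured by mouse). Rows give log2(CPM + 1) of 19 of the 20 B lineage genes, of 7 genes that followed the number and of 11 dendritic-type genes; the 7 and the 11 were chosen after their values were seen. Siglech, Cox6a2, Runx2 and Irf8 are brightest in cells at the left, with few B lineage genes.

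Among the genes whose level followed the number of B lineage genes, there were members of the list (Pax5, Ebf1, Cd79a, Vpreb2 and Vpreb3), each left out of the number it was compared with. Outside the list the highest was Slc25a1, the mitochondrial citrate carrier, with rho 0.73 and 0.70 in mice 18218 and 18220, and 0.81 and 0.45 in null BLPs of mice 18217 and 18219. It stood at 1054 and 840 CPM in BLPs, 313 and 367 CPM in ALPs and 275 and 197 CPM in LMPPs (edgeR adjusted p = 0.146 over ALPs and 0.00463 over LMPPs). Mzb1, a chaperone of antibody assembly, had 0.61 and 0.73, and Chchd10, a mitochondrial protein, 0.55 and 0.75. Chchd10 stood at 467 and 445 CPM in BLPs, 38.2 and 39.2 CPM in ALPs and 39.6 and 61.5 CPM in LMPPs. Chchd10 (chr10:75933130-75937747) lies near Vpreb3 (chr10:75943057-75949657) on the chromosome, and Slc25a1 (chr16:17925223-17928219) near Vpreb2 (chr16:17980428-17981273), both genes of the list. Whether position has a part in these relations was not tested. Parp1, a DNA repair enzyme, and Dok3, an adaptor that restrains B cell receptor signals, also followed in control BLPs, while Dok3 had -0.02 in null BLPs of mouse 18219.

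**Figure D5:**
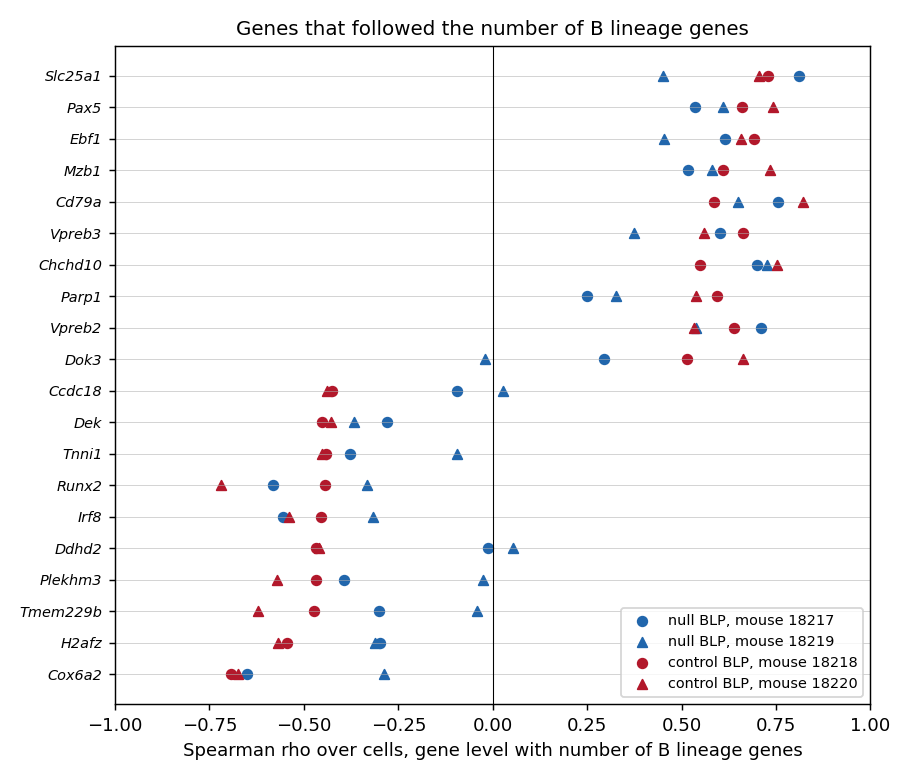
Spearman's rho over cells between the number of B lineage genes and the level of a gene (x axis), for the 10 protein-coding genes with the highest and the 10 with the lowest values in both control mice (y axis), in null BLPs (blue) and control BLPs (red). Circles are mice 18217 and 18218, triangles mice 18219 and 18220. Slc25a1 and Chchd10 lie above 0.4 in all 4 mice, and Cox6a2 and Runx2 lie below 0 in all 4.

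Other measures moved with the number of B lineage genes. Its rho with the number of nuclear genes was -0.05 in mouse 18218 and -0.44 in mouse 18220, with nuclear gene counts -0.15 and -0.27, and with the number of S phase genes -0.31 and -0.50. Their part in the relation was not tested. The sum of all non-B genes did not run against it in both mice (rho 0.06 and -0.27), whereas the number of dendritic genes did (-0.38 and -0.56). The numbers of stem genes (0.28 and -0.10) and of myeloid genes (0.31 and -0.01) had no common direction in the mice.

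The number of B lineage genes per cell overlapped between null and control BLPs. In null BLPs of mice 18217 and 18219 Mbd3 itself stood at 0.337 and 0.569 CPM, against 82.4 and 191 CPM in control BLPs, a log2 change of -8.23 ± 2.11 that edgeR did not call (adjusted p = 0.431). Which part of Mbd3 was deleted is not stated in the labels. The number of B lineage genes per cell was 7.69 and 8.26 in null BLPs and 9.0 and 7.29 in control BLPs, and at least 10 were read in 24 of 71 null and 20 of 69 control cells. Ebf1 stood at 278 and 291 CPM in null BLPs and 267 and 227 CPM in control BLPs, and Pax5 at 141 and 72.1 CPM in null BLPs and 43.1 and 36.4 CPM in control BLPs (edgeR adjusted p = 0.869 and 0.591). Of 19903 genes, edgeR called 1 higher and 1 lower (0.00502% each), and limma on shares called 0 higher and 2 lower (0.0168%). These genes are named after their values were seen. Apoe, a lipid carrier, stood at 44.5 and 27.2 CPM in null BLPs and 0.27 and 0.105 CPM in control BLPs (edgeR adjusted p = 0.0405). Ablim1, an actin-binding protein, stood at 0.3 and 0.36 CPM in null BLPs and 67.2 and 132.5 CPM in control BLPs (edgeR adjusted p = 0.0405), and limma called it lower too, with Atp6v0a1, a subunit of the vacuolar proton pump. None of the 20 B lineage genes was among those edgeR called. The number of genes called between null and control BLPs depended on the processing. It was 0 with mouse as a replicate block, 1 with all sorted cells kept and 1 with cells thinned to equal counts. Without a low-count filter it was 11, and with DESeq2 782.

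The promoters were searched for an Ebf1 motif. The letters TCCCNNGGGA, searched on both strands in 300 bases around the start, were found in 1 of 16 B lineage genes with a RefSeq promoter, that of Cd22, and in 287 of 27025 genes in all (1.06%). Only exact matches were counted, so a site with other letters or farther from the start would be missed.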

How the data were processed

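Single-cell RNA-seq libraries followed a full-length protocol, per the labels' protocols, and the table also lists 92 spike-in RNAs. The authors deposited whole-number read counts per gene and cell, and, per the submitters' processing notes, used build mm10 with GSNAP and HTSeq 0.5.3p3. The sources used here give neither annotation release nor strand setting, and overlapping or antisense genes may share reads. In control BLPs, genes took 45.3% of table entries, spike-ins 6.56%, unaligned reads 28.4%, reads without a feature 13.5% and ambiguous reads 6.17%; only genes entered library sizes and tests. Of 46078 identifiers, 45229 had a symbol in GENCODE vM21 (GRCm38, also called mm10).

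Cells were grouped by their titles. No 2 cells had identical counts (0 pairs), and doublets were not called, since each well received 1 sorted cell. Kept cells were summed into 12 libraries (3 populations, 2 genotypes, 2 mice each) and fitted together with edgeR 4.0.16 (filterByExpr, TMM, glmQLFit, 6 groups, 6 residual degrees of freedom); the common biological variation was 86.9%. Standard errors are approximate (size of the change over the root of F). Alternatives used DESeq2 1.42.0 and limma 3.58.1. Scripts were tested on simulated data. Whether the mice of a group were litter mates is not given, so p-values measure the spread between these mice. The same mouse gave all 3 populations, so mouse numbers pair the libraries; deviations of paired libraries correlated by 0.0341 to 0.0694 across genes.

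Thinning used 1 seeded draw. Levels per length divide counts by merged exon length. Named genes were the 6 markers, the 20 B lineage genes, gate genes, up to 4 most frequent genes per list, up to 8 called genes a direction with a mean of at least 20 CPM and no overlap between mice, and the 15 most variable genes. Members and lists were chosen with earlier results of these data known; other genes were named after their values were seen. One gene of the B lineage list is not reported here by itself.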

Additional observations from a re-analysis of the deposited data

How the results depend on the processing

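For BLPs over ALPs, genes higher and lower numbered 1 and 0 in the main test, 261 and 329 with DESeq2, 20 and 14 without a low-count filter, 8 and 0 with cells thinned to equal counts, 0 and 0 in control libraries only, and 11 and 1 by limma (shares of cells). Leaving out each mouse in turn gave 0 and 0 each time. For BLPs over LMPPs, genes higher and lower numbered 117 and 71 in the main test, 987 and 903 with DESeq2, 240 and 207 without a filter, 239 and 180 with thinned cells, 34 and 8 in control libraries only, and 207 and 176 with limma. Leaving out 1 mouse gave 0 to 34 higher and 0 to 9 lower. With mouse as a replicate block, the counts were 1 and 0 over ALPs and 81 and 45 over LMPPs. Of 26 named changes, none reversed under any alternative run; of the 21 that were called, the block cost 6 their call, control libraries alone 10, and leaving out mouse 18217, 18218, 18219 or 18220 cost 10, 18, 11 and 21, so none kept its call without mouse 18220. The mean number of B lineage genes per BLP was 8.14 at equal depth, 9.42 at 200000 counts per cell and 13.8 without thinning; non-B genes numbered 18.0, 23.5 and 41.6, and 19.2 with at least 10 reads. When genes and spike-ins were both scaled by gene totals, 9 of the 15 most variable genes were shared. Limits: with 2 mice a group, many B lineage genes with large changes over ALPs missed the edgeR threshold, which does not show that they did not differ. Reads without molecular identifiers overstate precision, and single cells gave much of the sum of rare transcripts. The causes of these shifts were not tested.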
